A study of Homo sapiens with 6 samples.

Results

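LNCaP is an established human prostate cancer cell line derived from a lymph node metastasis, and its growth is known to depend on androgen signaling. The transcriptome described here is that of LNCaP cells stably carrying the empty pBabe retroviral vector (pBabe-vector), which served as the control line of a study of the G protein subunit Gα13. The cells were chosen by their labels alone and make up 3 of the 6 samples of the series, the other 3 being cells that overexpress Gα13, whose values were not used. The 3 cultures carry the genotype label WT, were grown on plates in serum-containing RPMI for 48 h, and are called replicates 1, 2 and 3 after their titles. Per the study's methods, lines made with this vector were kept under puromycin, the drug of its resistance gene. No added hormone is named for them. The study's methods describe 3 biological replicates of LNCaP cells stably carrying this vector and name no separately made lines. The SD given with each value is therefore taken as the spread among cultures and not among independent lines. The column of replicate 1 carries the tag std, whose meaning was not given in the sources used here.

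In the normal prostate, luminal cells line the glands and secrete proteases and other proteins into the seminal fluid, and basal cells lie beneath them. Androgen switches on the secretory genes in luminal cells, with the help of FOXA1, a pioneer factor that opens chromatin, and HOXB13, a homeobox factor of the posterior body axis. Prostate cancers usually keep this luminal program, and KLK3, the gene of prostate-specific antigen (PSA), is its best known product in the clinic.

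Whole-read counts were available for 17297 gene symbols, with totals of 40628970, 35152588 and 33002160 counts in replicates 1, 2 and 3. CPM (counts per 1000000, adjusted for library composition) serve below to compare cultures. TPM (counts divided by the length of the annotated exons and then scaled to 1000000 per library) serve to compare genes. Ranks by TPM are among the 14401 genes that could be given a length. A gene was called expressed at 1 CPM or more in each culture, which held for 13442 genes (77.7%), and silent at 3 reads or fewer in each culture, which held for 1184 genes (6.85%). Of the silent genes, 426 had no read in any culture. The remaining 2671 genes lay between these limits. The study describes the genes listed for its LNCaP lines as expressed genes, so the list was already selected. The rule of selection was not given, and the cultures not used here may have had a part in it. Below, all genes means this selected list, and the shares of 77.7% and 6.85% hold within it. A count of 3 corresponded to 0.0704, 0.0872 and 0.0932 CPM in replicates 1, 2 and 3, and this floor covers counting error only, since PCR copies of a molecule were not told apart.

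The range of these libraries is shown by the upstream sequences of a gene at the top and a gene near the bottom of it. KLK3 encodes PSA, and GSTP1 encodes a glutathione transferase whose promoter is known to be methylated in most prostate cancers and in LNCaP. Both sequences are on the plus strand of GRCh38.p14 as given by RefSeq, end at the base before the first annotated exon and lie outside any annotated gene, KLK3 at chr19:50854665-50854914 and GSTP1 at chr11:67583562-67583741. In KLK3 the capitals mark AGAACA, the core letters bound by steroid receptors in the androgen response element, and the reverse complement of TATAAA, the letters of a TATA box. In GSTP1 they mark the CpG dinucleotides, the sites of DNA methylation.
KLK3: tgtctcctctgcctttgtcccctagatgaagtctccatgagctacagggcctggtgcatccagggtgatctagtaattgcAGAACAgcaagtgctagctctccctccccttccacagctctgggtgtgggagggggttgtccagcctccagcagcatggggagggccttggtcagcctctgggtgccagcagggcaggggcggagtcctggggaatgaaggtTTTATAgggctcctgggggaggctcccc
GSTP1: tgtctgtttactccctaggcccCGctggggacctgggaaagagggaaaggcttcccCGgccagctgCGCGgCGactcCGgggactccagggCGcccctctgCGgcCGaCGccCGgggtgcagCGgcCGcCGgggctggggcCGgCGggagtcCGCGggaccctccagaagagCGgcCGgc
The 250 bases before KLK3 held 1 CpG, and the 180 bases before GSTP1 held 20. AGAACA began 170 bases before the start of KLK3 on the plus strand, and TATAAA began 28 bases before it on the minus strand. Both strands were searched, and the motifs do not overlap. Among 35116 promoter windows of the same length, AGAACA was found in 12.4%, TATAAA in 10.7% and both in 1.96%. These are matches of letters and not shown binding sites.

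KLK3 had 112130, 128150 and 58907 counts in replicates 1, 2 and 3. Its level was 2632, 3727 and 1831 CPM, with a mean of 2730 ± 952 (SD, n = 3), and the order of the cultures was replicate 2, replicate 1, replicate 3. Per length, KLK3 reached 2217 ± 773 TPM and rank 42. GSTP1 was represented by 9, 1 and 12 reads in the same libraries. Its level of 0.204 ± 0.172 CPM was below 1 CPM in each culture.

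All 5 luminal markers used to check the label of the cells were expressed, against 77.7% of all genes. KLK2, a protease closely related to PSA and encoded beside it, was measured at 109, 168 and 83.1 CPM. TMPRSS2, a membrane serine protease under androgen control, was measured at 718, 955 and 414 CPM. For both, as for KLK3, replicate 2 was high and replicate 3 was low, and the coefficient of variation (CV, the SD as a percentage of the mean) was 34.9% for KLK3, 36.3% for KLK2 and 39.0% for TMPRSS2. FOXA1 was at 457, 494 and 398 CPM. HOXB13 was at 514, 525 and 509 CPM, a CV of 1.62%. The CPM of each marker was lowest in replicate 3 and highest in replicate 2, although for HOXB13 the cultures hardly differed. Each of the markers given for the label was thus present in each culture.

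On the TPM scale the markers spanned a wide range. HOXB13 was at 639 ± 83.3 TPM (rank 156), TMPRSS2 at 400 ± 161 (rank 297), FOXA1 at 385 ± 70.7 (rank 309) and KLK2 at 71.0 ± 24.6 (rank 2384). The intervals of TMPRSS2 and FOXA1 overlapped, so these neighbours in the order did not differ beyond their spread. The low rank of KLK2 depends on the length used. Its annotated exons, which include long transcripts, sum to 6351 bases, and with the length of the longest single transcript its level was 115 TPM and its rank 1452. The order of the other markers depends on the length as well. With the longest single transcript TMPRSS2 was at 469 TPM (rank 248), HOXB13 at 466 TPM (rank 251) and FOXA1 at 352 TPM (rank 373). In GRCh38, KLK3 (chr19:50854915-50860764) and KLK2 (chr19:50861568-50880567) are neighbours on the plus strand. The RefSeq window of KLK2 holds annotated exons of the gene itself and is not printed here. How the counting treated reads that match both genes was not given in the sources used here.

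The transcription factors of the luminal program were all expressed, 9 of 9, against 77.7% of all genes. Their median was 250 TPM, against 16.8 TPM for all genes with a length. HOXB13 was the highest, followed by FOXA1 and by XBP1, a factor of the secretory pathway, at 334 ± 98.7 TPM. SPDEF, an ETS factor of glandular epithelium, was at 255 ± 77.7 TPM and EHF, another epithelial ETS factor, at 250 ± 64.2 TPM, and these levels did not differ beyond their spread. GATA2, a zinc finger factor of prostate epithelium, was at 210 ± 26.9 TPM. CREB3L4 was at 113 ± 37.4 TPM and GRHL2, which maintains epithelial junctions, at 102 ± 15.5 TPM. ELF3 was the lowest of the list at 11.1 ± 1.28 TPM.

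Across the cultures each of these factors had a smaller CV than KLK3, and their orders differed. GATA2 was at 242, 253 and 338 CPM in replicates 1, 2 and 3 and GRHL2 at 159, 145 and 190 CPM, both highest in replicate 3. XBP1 (303, 284 and 209 CPM) and EHF (482, 459 and 363 CPM) were lowest there. The median CV of the 9 factors was 14.6%, and that of all expressed genes was 12.2%.

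**Figure D1:**
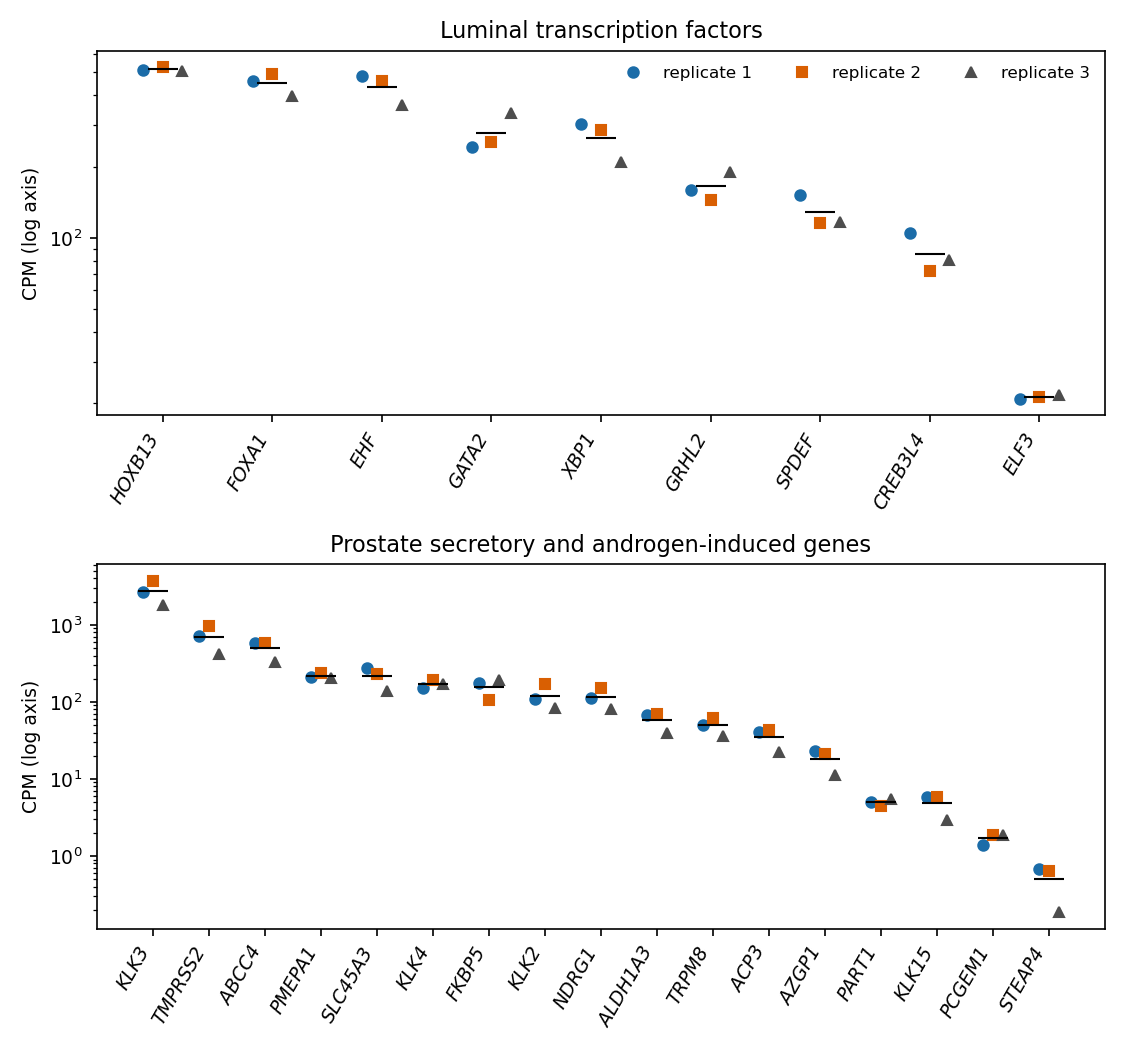
CPM (log axis) in the 3 pBabe-vector cultures for the luminal transcription factors (upper panel) and the secretory and androgen-induced genes (lower panel). Each symbol is 1 culture and each bar the mean. The symbols of HOXB13 lie almost on each other, and replicate 3 (triangles) is the lowest for 12 of the 16 expressed secretory genes.

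Secretory and androgen-induced genes varied more between the cultures than their regulators did. Of 23 listed genes, 17 were in the table and 16 of these were expressed (94.1%, against 77.7% of all genes). Replicate 3 had the lowest CPM for 12 of the 16 and replicate 2 the highest for 10. Over all expressed genes, replicate 3 was the lowest for 39.4% and replicate 2 the highest for 30.9%. The median CV of the 16 was 29.96%. The libraries differed in other ways as well, replicate 1 having the smallest share of reads from mitochondrial DNA (given below) and replicate 3 the lowest total, and the part of these in the order of the cultures was not tested.

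After KLK3 and TMPRSS2, the highest of the list by TPM was KLK4, an androgen-regulated protease, at 322 ± 23.7 TPM. Its CPM of 153, 193 and 173 followed neither the order of KLK3 nor its spread. ABCC4, an efflux pump for cyclic nucleotides and drugs, was at 587, 584 and 332 CPM. SLC45A3, the prostate protein prostein, was at 274, 229 and 140 CPM. In both, replicate 3 stood below the other cultures. FKBP5, a chaperone that responds to steroid receptors, had another order, with 178, 105 and 191 CPM and replicate 2 as the lowest. PMEPA1, an androgen-induced inhibitor of TGF-β signaling, varied less (208, 240 and 203 CPM).

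Other members of the same list stood lower. Prostatic acid phosphatase (ACP3, listed under its older symbol ACPP) was at 40.2, 43.7 and 22.4 CPM. AZGP1, zinc-binding glycoprotein, was at 23.2, 20.8 and 11.2 CPM, and TRPM8, a cold-sensing channel, at 50.3, 61.9 and 36.1 CPM. For these 3 genes replicate 3 was again the lowest. KLK15 (4.84 ± 1.66 CPM) and the non-coding prostate transcripts PART1 (4.998 ± 0.574 CPM) and PCGEM1 (1.71 ± 0.285 CPM) were the lowest of the expressed members, and PCGEM1 was near the limit of 1 CPM. STEAP4, a metalloreductase, had 29, 22 and 6 reads and was not counted as expressed. The genes MSMB, TGM4, NPY, PCA3, SEMG1 and SEMG2 were not analysed here.

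The kallikrein locus on chromosome 19 holds KLK3 and KLK2 among its 15 protease genes and 1 pseudogene. Of these 16, 5 were in the table, and all 5 were expressed, against 77.7% of all genes. They covered a range from 2217 TPM for KLK3 and 322 TPM for KLK4 to 71.0 TPM for KLK2 and 5.96 TPM for KLK15. The pseudogene KLKP1 had 91, 117 and 72 reads (2.59 ± 0.704 CPM), and no length was assigned to it. The other 11 members were not analysed here.

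Of the surface proteins used as targets or markers in prostate cancer, 16 of the 18 in the table were expressed (88.9%, against 77.7% of all genes). STEAP1, a membrane protein of prostate cells, was at 682 ± 36.9 TPM (rank 148). FOLH1, the gene of prostate-specific membrane antigen (PSMA), was at 696, 847 and 638 CPM and 512 ± 88.9 TPM (rank 215). CDH1, the adhesion protein E-cadherin, was at 411 ± 69.2 TPM, and STEAP2 at 329 ± 72.1 TPM. The means of STEAP1 and FOLH1 were separated by more than the sum of their SDs. Those of FOLH1 and CDH1 were not, although FOLH1 was above CDH1 within each library (566 and 455, 561 and 447, and 409.7 and 332 TPM).

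HPN, the membrane protease hepsin, had 180, 248 and 130 CPM and followed the order of KLK3. EPCAM (103 ± 6.76 CPM) and PVR (50.3 ± 2.70 CPM) varied little. SLC44A4, a choline transporter-like protein, varied most among the expressed members, with 45.1, 67.4 and 19.9 CPM and a CV of 53.9%. The antigen PSCA was low (3.87 ± 1.18 CPM). SSTR2 had 37, 19 and 42 reads and CD38 11, 5 and 6 reads, so that both targets were below 1 CPM in at least 1 culture.

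The epithelial genes of luminal cells were expressed without exception, 16 of 16 (against 77.7% of all genes), with a median of 138 TPM. CLDN7, a tight junction protein, was the highest at 442 ± 82.2 TPM, followed by CDH1, KRT18 at 257 ± 58.1 TPM and CLDN3 at 215 ± 53.4 TPM. KRT8 and KRT18 form the keratin pair of simple epithelia, and KRT8 was at 260, 275 and 263 CPM, a CV of 3.05%. JUP, a junction plaque protein, had a CV of 1.82% (280 ± 5.09 CPM) and ESRP2, an epithelial splicing regulator, one of 3.11%. Their cultures thus differed by far less than those of KLK3. CLDN4 (170, 240 and 123 CPM) was among the members that varied more. KRT19 was the lowest of the list at 6.63 ± 1.79 TPM.

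Over whole gene families, 6 of the 12 keratins in the table (50%) and 7 of the 10 claudins (70%) were expressed, against 77.7% of all genes, so that the share of claudins was near that of all genes. Among keratins, KRT18 and KRT8 were followed by KRT10 at 70.2 ± 6.10 TPM and KRT19. KRT15 and KRT4 were silent, with 2 reads in 1 culture and none in any culture. Among claudins, the barrier proteins CLDN7, CLDN3 and CLDN4 led, and CLDN12 followed at 56.5 ± 8.55 TPM. CLDN1 had 12, 6 and 17 reads, and CLDN11 was silent with 1 read in all.

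**Figure D2:**
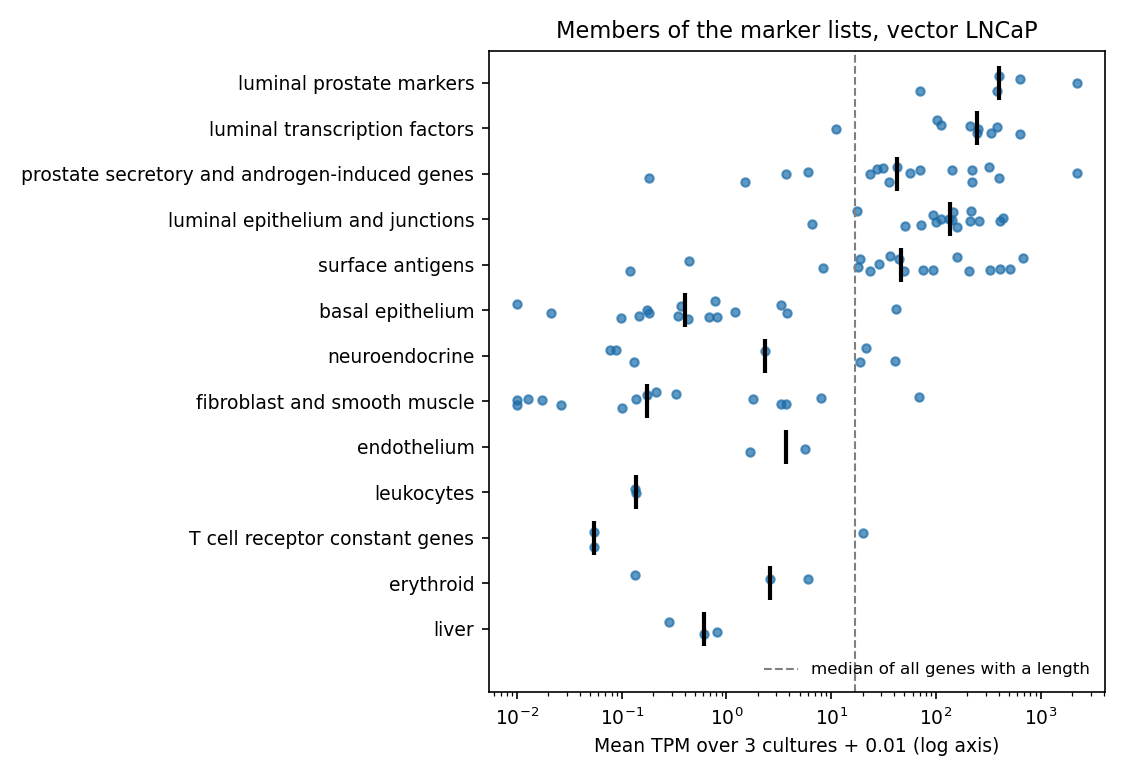
Mean TPM over the 3 cultures plus 0.01 (log axis) for the members of each marker list that could be given a length. Each point is a gene, black bars are list medians and the dashed line is the median of all genes. Lists of luminal genes have medians between 42.2 and 400 TPM, and the basal list has a median of 0.388 TPM.

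Basal cell genes were low, with 4 of 16 expressed (25%, against 77.7% of all genes), 2 silent (12.5%, against 6.85%) and 10 between these limits. TP63, the master regulator of basal epithelium, had 0 reads in each of the 3 libraries, which allows at most 0.0704 to 0.0932 CPM at a floor of 3 reads. KRT15 had 2, 0 and 0 reads. The expressed members were ITGA6, DST, ITGB4 and KRT14. ITGA6, an integrin chain that is not limited to basal cells, was the highest at 41.2 ± 7.89 TPM. KRT14, a keratin of basal cells, had 76, 84 and 58 reads (2.01 ± 0.375 CPM). SFN was at 3.75 ± 0.657 TPM with 39, 55 and 48 reads and fell below 1 CPM in replicate 1, as did the laminin chain LAMB3 with 18, 48 and 36 reads.

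Neuroendocrine genes were represented by 7 of the 13 in the list, and 4 of these were expressed (57.1%, against 77.7% of all genes). ENO2, a neuronal enolase, was at 41.2 ± 7.01 TPM, SYT4, a vesicle protein, at 21.6 ± 3.03 TPM, DLL3, a Notch ligand, at 18.9 ± 3.57 TPM and the vesicle protein SYP at 2.33 ± 0.322 TPM. NCAM1, POU3F2 and SCG2 had at most 12, 4 and 6 reads in any library. CHGA, CHGB, INSM1, SCG3, NEUROD1 and SRRM4 were not analysed here.

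Genes of connective tissue and smooth muscle were expressed in 5 of 15 cases (33.3%, against 77.7% of all genes) and silent in 5 (33.3%, against 6.85%). FN1, the matrix protein fibronectin, stood out at 253, 290 and 411 CPM (68.3 ± 11.9 TPM). COL1A1 was at 22.8, 22.8 and 11.4 CPM, whereas its partner chain COL1A2 was silent with 2, 0 and 3 reads. VIM, an intermediate filament of mesenchymal cells, had 72, 132 and 62 reads (2.49 ± 1.18 CPM). TAGLN (5.67 ± 1.299 CPM) and ACTA2 (5.46 ± 0.762 CPM) share 47.8% and 36.2% of their exon bases with other annotated genes, and whether the counting used strand was not given. DCN, PDGFRA, CNN1 and FAP were silent with 2 reads or fewer per library.

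For the blood vessel and blood cell lists most members were not analysed here, and the values concern few genes. VWF, an endothelial clotting factor, had 801, 699 and 210 reads (15.2 ± 7.57 CPM), and ENG 87, 63 and 38 reads. The leukocyte genes CD14 and CD79A had at most 4 and 3 reads. Of the constant genes of the T cell receptor, TRBC1 and TRBC2 had 1 read each in all, and TRGC1 had 734, 442 and 410 reads (19.998 ± 6.39 TPM). Prostate epithelium is known to transcribe the TRGC1 region as TARP, and 35.4% of the exon bases of TRGC1 are shared with other annotated genes, so the reads cannot be assigned to a single gene.

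For a small set of genes replicate 2 lacked reads that both other cultures had. HBB, the beta chain of hemoglobin, had 128, 0 and 99 reads in replicates 1, 2 and 3. AFP, an albumin-like protein of fetal liver, had 40, 0 and 35, and the stratified epithelial keratins KRT5, KRT17 and KRT6A had 24, 0 and 19, 17, 0 and 12, and 15, 0 and 20. HBA2 (40, 1 and 22 reads) and ALB (36, 3 and 21 reads) had the same order. Across the table, 7 genes had no read in replicate 2 and 10 or more in each of the others. The same was seen for 3 genes with replicate 3 as the empty library and for 0 genes with replicate 1. At other limits, with at most 3 reads in a library and at least 30 in each of the others, the counts were 2 genes for replicate 2, 4 for replicate 3 and 0 for replicate 1, so that replicate 2 did not lead at both limits. The other members of the 7 were S100A6 (13, 0 and 14 reads) and RP4-625H18.2 (11, 0 and 25 reads), and these counts and names were drawn up after the values had been seen. HBB stayed below 4 CPM in every culture, and the source of these reads was not tested.

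The most abundant transcripts were those of the mitochondrial genome and of the translation machinery. The 100 genes with the most counts in a library held 20.4 ± 2.48% of its counts, and the 10 highest 6.83 ± 1.45%. By TPM, 14 of the 20 highest genes were encoded by mitochondrial DNA and 3 were ribosomal protein genes. MT-CO1, a subunit of cytochrome c oxidase, was the highest by TPM in each library, at 28921 ± 11678 TPM. By CPM it had the highest mean, but in replicate 1 EEF1A1 and EEF2 (values below) stood above it. It was followed by MT-CO2 at 22324 ± 8608 TPM, the ribosomal RNA gene MT-RNR2 at 21906 ± 8571 TPM and MT-CO3 at 19322 ± 7175 TPM. These SDs hold the shift shared by all mitochondrial genes between libraries. Within each library MT-CO2 (12573, 25530 and 28869 TPM) and MT-RNR2 (12010, 26943 and 26767 TPM) were above MT-CO3 (11079, 24170 and 22716 TPM), whereas MT-CO2 and MT-RNR2 changed places between libraries.

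Mitochondrial transcripts also set replicate 1 apart. The 33 genes of mitochondrial DNA in the table took 2.54% of the counts in replicate 1, 6.40% in replicate 2 and 7.07% in replicate 3. MT-CO1 was at 5490, 15587 and 16023 CPM. MT-ND4, a complex I subunit, was at 2744, 7239 and 9079 CPM. Each of the 13 protein-coding genes of mitochondrial DNA was lowest in replicate 1, and the lowest of them by TPM was MT-ATP8 at 2965 ± 1330 TPM. Their summed TPM was 89828, 196321 and 216913 in replicates 1, 2 and 3, so that the TPM of every nuclear gene is scaled down more in replicates 2 and 3 than in replicate 1. For this reason cultures are compared here in CPM. The cause of this shift was not tested.

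**Figure D3:**
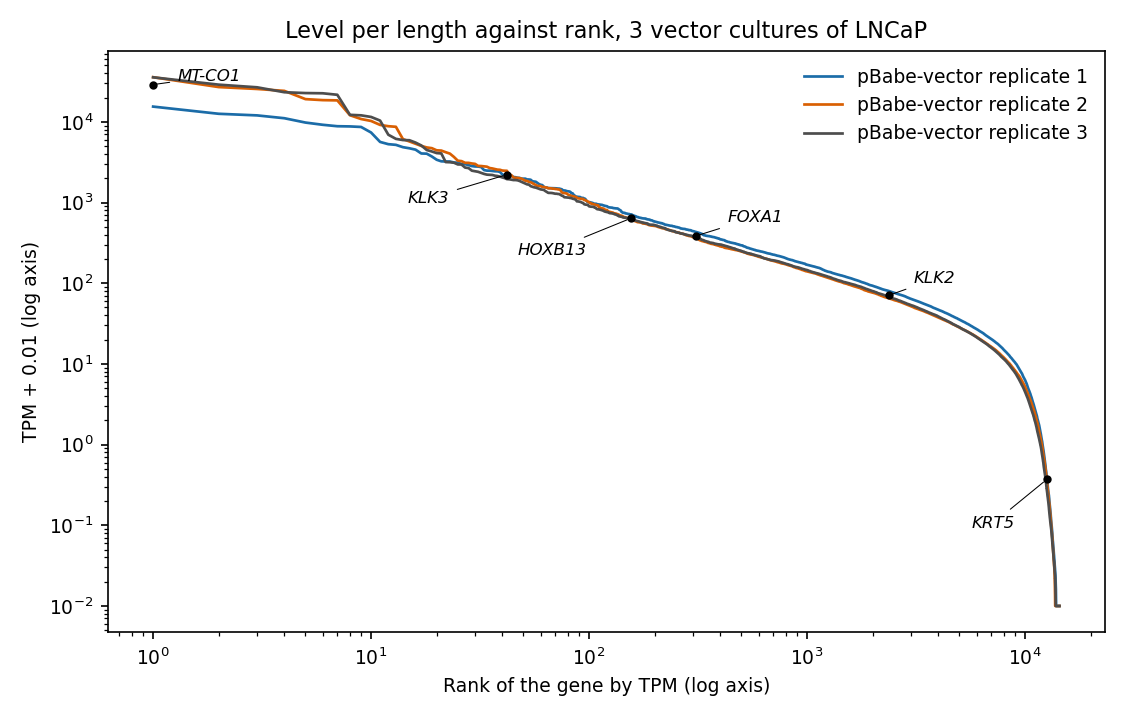
TPM plus 0.01 against rank (both axes logarithmic) for 14401 genes in each pBabe-vector culture, with the means of 6 genes marked. The curve of replicate 1 starts at 15437 TPM for MT-CO1, below 35727 in replicate 2 and 35600 in replicate 3, and runs above the others beyond the first ranks.

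Among nuclear genes, the elongation factors of translation had the highest mean CPM. EEF1A1 was at 10902, 12531 and 8686 CPM and EEF2 at 8179, 10415 and 5975 CPM, both highest in replicate 2 and lowest in replicate 3. Per length, EEF2 (7688 ± 2256 TPM, rank 13) was above EEF1A1 (4019 ± 931 TPM, rank 20), and the ribosomal protein genes RPS2, RPL13A and RPS12 (ranks 14, 15 and 16) lay between them. The annotated exons of EEF1A1 sum to 10063 bases and those of EEF2 to 4021. EEF1A1 had more CPM in each library, so the order of these factors by TPM rests on the summed exon lengths. Ribosomal protein genes, 87 in number, took 8.49%, 9.42% and 7.86% of the counts. The highest by CPM were RPL13A at 4410 ± 721 CPM, RPS2 at 4013 ± 141 CPM and RPL3 at 3688 ± 388 CPM. The highest nuclear gene by TPM was RPL41P1, a processed copy of RPL41, at 8461 ± 1447 TPM (rank 11), and RPS2P5 followed outside the 20 highest at 1909 ± 224 TPM. Reads of such near-identical copies could have been split or assigned either way by the counting, and the levels of both pairs are uncertain. RPL41P1 has only 81 annotated exon bases and was at 182 ± 17.6 CPM, rank 1015 by CPM. Its high rank by TPM thus rests on its short length.

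General cellular genes were expressed in 31 of 31 cases (against 77.7% of all genes), with a median of 645 TPM. HSP90AB1, a chaperone that holds steroid receptors, was at 3057 ± 242 TPM, ACTB at 2651 ± 603 TPM and GAPDH at 2571 ± 230 TPM. KLK3, at 2217 TPM, was thus expressed at a level whose spread overlapped those of actin and GAPDH. The lowest members were ALDOA at 30.7 ± 3.998 TPM and TUBA1A at 15.4 ± 5.73 TPM. ALDOA shares 54.2% of its exon bases with another annotated gene, so its count is uncertain, and the same holds for MALAT1 (83.7% shared) and FTH1 (63.2% shared).

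Outside the lists, and leaving out genes of mitochondrial DNA and ribosomal proteins, the 10 highest genes by TPM included several of metabolism and secretion. SPON2, a secreted matrix protein, had 2789, 3346 and 2784 CPM and 1863 ± 234 TPM (rank 52), close to KLK3. With the length of the longest single transcript SPON2 was at rank 24 and KLK3 at rank 40, so their order depends on the length used. ATP5B, the beta subunit of ATP synthase, was at 2052 ± 337 TPM and CALR, a chaperone of the endoplasmic reticulum, at 1690 ± 238 TPM. CKB, a brain-type creatine kinase, was at 1578 ± 99.0 TPM. Next to these stood PTMA (1843 ± 299 TPM), PPDPF (1840 ± 172 TPM) and CHCHD2 (1661 ± 236 TPM). GDF15, a stress-induced hormone of the TGF-β family, differed from them by its spread, with 974, 1509 and 232 CPM and a CV of 70.8%. The order of the cultures was that of KLK3. Of the 100 highest genes by TPM in each library, 86 were shared by all 3.

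HOX genes encode homeobox factors that give cells their position along the body axis, and they lie in 4 clusters with paralog numbers from 1 at the anterior to 13 at the posterior end. In pBabe-vector cells 1 gene dominated all clusters. HOXB13 was at 639 TPM, and no other HOX gene in the table exceeded 19.7 TPM. In the HOXB cluster, 2 of 9 genes were expressed (22.2%, against 77.7% of all genes), the other being HOXB9 at 5.96 ± 0.632 TPM. HOXB2, HOXB4 and HOXB8 were silent, and HOXB7 (64, 36 and 15 reads) and HOXB6 (37, 18 and 20 reads) lay between.

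The HOXC cluster had more expressed members, 5 of 8 (62.5%, against 77.7% of all genes), at lower level. HOXC6, a gene often raised in prostate tumors, was at 17.7, 18.6 and 17.99 CPM (19.7 ± 2.28 TPM). HOXC13 was at 14.7 ± 4.96 TPM, HOXC9 at 11.5 ± 2.96 TPM, HOXC12 at 5.06 ± 3.11 TPM and HOXC4 at 2.73 ± 0.319 TPM. Between these, HOXC8 had at most 4 reads and HOXC10 and HOXC11 were silent, so that the expressed genes were not a single run along the cluster. In the HOXA cluster only HOXA10 (1.71 ± 0.250 CPM) of 9 genes met the limit in each culture (11.1%, against 77.7% of all genes). HOXA5 (51, 47 and 17 reads) met it in replicates 1 and 2, and without replicate 3 the count was 2. In the HOXD cluster 0 of 6 genes were expressed (against 77.7% of all genes) and 5 were silent (83.3%, against 6.85% of all genes). HOXD4, HOXD9, HOXD10 and HOXD11 had no read in any library.

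**Figure D4:**
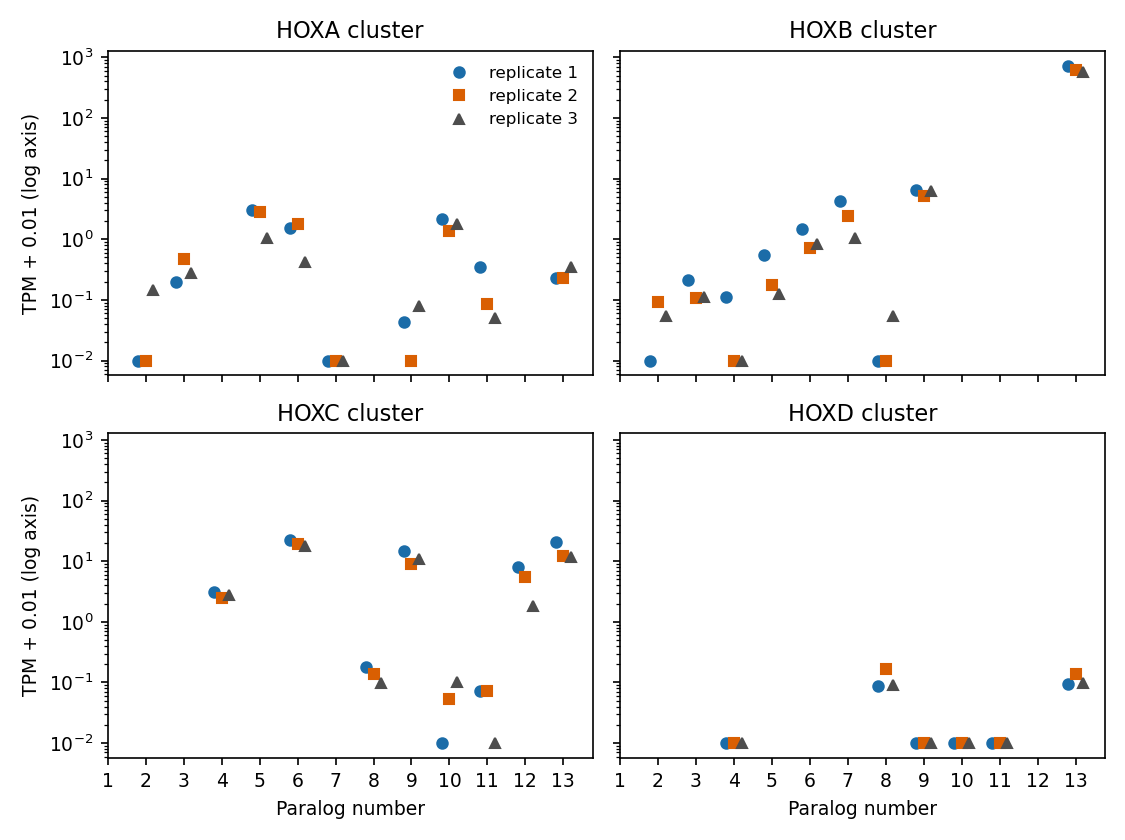
TPM plus 0.01 (log axis) of the HOX genes reported here by paralog number, a panel per cluster and a symbol per culture; points at 0.01 are genes without reads. HOXB13 lies above 500 TPM in each culture, and the HOXD cluster does not exceed 0.3 TPM.

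Nuclear receptors are transcription factors that bind hormones and other small ligands. Of 47 listed, 36 were in the table and 25 of these were expressed (69.4%, against 77.7% of all genes). NR2F6, an orphan receptor, was at 164 ± 15.1 TPM and was the highest of those reported here. ESRRA, which drives mitochondrial genes, followed at 124 ± 7.33 TPM and NR1D2, a clock repressor, at 54.1 ± 15.6 TPM. RXRA, the common partner of many receptors, was at 38.02 ± 2.34 TPM, and the vitamin D receptor VDR at 18.7 ± 4.22 TPM.

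The steroid receptors reported here were low. NR3C1, the glucocorticoid receptor, had 66, 34 and 7 reads, or 1.55, 0.989 and 0.218 CPM, and was lowest in replicate 3. PGR, the progesterone receptor, had 42, 43 and 23 reads (0.984 ± 0.268 CPM). NR3C2, the mineralocorticoid receptor, was expressed at 5.99 ± 0.634 CPM. RXRG, NR2E1 and NR0B1 were silent. The estrogen receptor genes ESR1 and ESR2 were not analysed here.

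Receptor tyrosine kinases carry growth factor signals, and 28 of the 43 in the table were expressed (65.1%, against 77.7% of all genes). ERBB2 (HER2) was the highest at 75.9 ± 21.6 TPM, with 208, 261 and 154 CPM. DDR1, a collagen receptor, was at 52.3 ± 3.31 TPM, EPHB4 at 45.2 ± 3.19 TPM and ERBB3 at 44.0004 ± 12.6 TPM. EGFR was at 67.5, 80.6 and 80.3 CPM (17.8 ± 0.547 TPM), and IGF1R at 26.6 ± 6.09 TPM. MET, the hepatocyte growth factor receptor, had 19, 10 and 25 reads (0.505 ± 0.248 CPM), and AXL 4, 1 and 13. KIT, PDGFRA, EPHA4 and EPHB1 were silent, with at most 3 reads in any library.

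Several genes of interest are known to be altered in LNCaP, and their transcripts were found at very different levels. ETV1, an ETS factor whose locus is rearranged in LNCaP, was at 456, 431 and 301 CPM (157 ± 49.3 TPM). The growth regulator MYC was at 264, 303 and 213 CPM (161 ± 36.0 TPM). JAK1, a kinase of cytokine signaling known to be defective in this line, was low at 4.71 ± 0.616 CPM.

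Among genes known to be silenced in LNCaP, EDNRB, an endothelin receptor, had no read. CAV1 (2, 0 and 8 reads) and CAV2 (1, 0 and 5 reads), the caveolins, CD44 (25, 7 and 8 reads) and the annexins ANXA1 (9, 4 and 8 reads) and ANXA2 (28, 12 and 42 reads) were all below 1 CPM on average. For CAV1, CAV2, CD44, ANXA1 and ANXA2, as for GSTP1, replicate 2 had the fewest reads. These genes are part of a list of 18 genes known as altered or silenced in LNCaP. Over all expressed genes, which include none of those just named, replicate 2 had the lowest CPM for 36.4%. That share is therefore not a like comparison for genes with so few reads. RARB (3.51 ± 0.6496 CPM) and RASSF1 (25.03 ± 3.48 CPM) were expressed.

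Mismatch repair corrects replication errors. The 7 genes reported here were all expressed, against 77.7% of all genes. MSH6, which recognizes mismatches, was at 13.7 ± 4.36 TPM and MSH3, which recognizes small loops, at 15.1 ± 2.68 TPM. PCNA, the sliding clamp of replication, was the highest at 167, 151 and 328 CPM (566 ± 215 TPM). Replicate 3 was the highest for 4 of the 7 genes and replicate 2 the lowest for 5. Over all expressed genes these shares were 41.01% and 36.4%, and with 7 genes the counts are given as a description only. The nuclease EXO1 (20.4, 16.1 and 39.0 CPM) and MSH6 (55.7, 46.8 and 93.4 CPM) followed PCNA, whereas PMS2 (61.4, 58.9 and 58.6 CPM) and MLH3 (40.5, 38.1 and 37.6 CPM) hardly differed between cultures.

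Windows at the annotated starts of silent and expressed genes differed in base composition. CpG-rich promoters are known to be typical of housekeeping genes, and CpG-poor ones of tissue-specific genes. For each gene matched to a protein-coding gene, the window from 250 bases before to 50 bases after its start in the Gencode 44 annotation of GRCh38 was called CpG-rich at a GC content of 55% or more and a ratio of observed to expected CpG of 0.65 or more. This held for 64.4% of 11427 expressed genes, 41.7% of 1601 genes between the limits and 37.0% of 786 silent genes. The 786 were the silent genes with such a match, out of 1184, so the share does not describe silent genes as a whole. The median ratio was 0.811 for expressed and 0.585 for silent genes. The windows lie at the outermost annotated start of each gene, and the start in use was not determined. No test was made, since neighbouring and related genes are not independent.

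Few promoters of the secretory genes were CpG-rich. Of 15 secretory and androgen-induced genes with a window, 3 were CpG-rich (20%), against 60.2% of the 13814 genes with a window. The basal epithelium list had a similar share, 3 of 16 (18.75%), so the low share was not particular to the secretory genes. Among the secretory genes, the CpG-rich windows were as follows. The 3 were ABCC4, SLC45A3 and STEAP4, of which STEAP4 was not counted as expressed. KLK3 and TMPRSS2 each held 2 CpG in 300 bases. Among the factors of the luminal program 5 of 9 windows were CpG-rich (55.6%), a share near that of all genes, FOXA1 with 16 CpG being among them. GSTP1 had 34 CpG in its 300 bases and a ratio of 0.843, as printed in part above, and was a CpG-rich promoter with almost no reads.

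The 3 cultures were alike for most genes, and replicate 3 was the farthest from the others. The correlation of log2(CPM + 1) across the expressed genes, which are not independent replicates, was 0.992 between replicates 1 and 2, 0.983 between 1 and 3 and 0.978 between 2 and 3. The median CV of expressed genes was 12.2%, with 4.31% and 30.4% as the 10th and 90th percentiles, where counting alone would give a median of 3.06%. Without replicate 3 the median was 7.36%. Among expressed genes, 858 (6.38%) differed by at least 2-fold between their highest and lowest culture. The cultures differed by over 1 on the log2 scale for 0.461% of expressed genes between replicates 1 and 2, and for 3.46% between replicates 2 and 3.

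The genes that varied most included regulators known to respond to signals. Among genes with a mean of at least 10 CPM, ID1 had the largest CV, with 9.86, 1.69 and 56.6 CPM. ID3 followed the same order with 16.5, 3.81 and 60.7 CPM. Both encode inhibitors of helix-loop-helix factors and are known targets of BMP signaling, and both were high in replicate 3 and low in replicate 2. NDUFA4L2 (12.5, 55.4 and 2.89 CPM), a known target of hypoxia-inducible factors, and ANGPT2 (8.36, 44.6 and 7.49 CPM), a vascular ligand, were high in replicate 2 alone.

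The remaining genes of this rule had other orders. S100P, a calcium-binding protein, fell away in replicate 3 (17.8, 13.9 and 0.466 CPM), as did the clone-named RP1-276N6.2 (30.5, 14.1 and 0.342 CPM). GRIN3A (8.47, 9.51 and 35.6 CPM), S1PR3 (8.83, 16.9 and 45.3 CPM) and CLU, the chaperone clusterin (3.73, 9.42 and 23.0 CPM), were highest in replicate 3. DIO3, which inactivates thyroid hormone, was at 5.14, 70.5 and 31.1 CPM. With 1 library per culture the spread within a culture is not known.

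At the other end, among genes with a mean of at least 100 CPM, 10 had a CV of 0.730% or less. They included KPNA6, an importin (115 ± 0.276 CPM), FXR2, an RNA-binding protein (118 ± 0.392 CPM), the histone demethylase KDM2A (137 ± 0.796 CPM), the ribophorin RPN1 (360 ± 2.53 CPM) and the translation factor EIF3A (611 ± 4.46 CPM). PRRC2A (625 ± 4.06 CPM), FAM168B, CKAP4 and LSM14A belonged to the same group, and the last of the 10 was a row whose symbol had been turned into a date. These genes were picked for their small spread out of 2298 candidates, and such small values can arise by the choice itself.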

How the data were processed

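RNA-seq counts of 3 cultures of LNCaP cells with the empty pBabe vector were analysed, and 3 columns of values of the series were not used. Per the study's methods, the authors made these counts from paired-end reads of total RNA. They checked reads with FastQC (version 0.11.7 in the submitters' processing notes), aligned them with STAR to Gencode 38 and summed them per gene with featureCounts. Some symbols of the table (ACPP, ATP5B and clone names) are older than that release, so the annotation used for counting is uncertain. The version of STAR, the strand setting and the rule by which genes had been selected were not given in the sources used here. The table is described as CPM on a log2 scale but holds whole-number counts as deposited, and these were analysed as counts. Of its symbols, 22 had been turned into dates.

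CPM were computed with TMM factors of edgeR 4.0.16 (R 4.3.3), which were 1.05, 0.978 and 0.975 for replicates 1, 2 and 3. TPM used the summed exon lengths of Gencode 44 on GRCh38, in which 14401 of 17297 symbols were found. These symbols held 98.3% to 98.5% of the counts. Values are means ± SD over 3 cultures, and no test was made, since no groups are compared. The common biological CV estimated by edgeR was 18.1%, and the median of its estimates per gene was 16.7%. Only the estimate per gene was checked on simulated counts. Correlations used log2(CPM + 1). Promoter sequences printed are those of RefSeq (GRCh38.p14). Python 3.11.15, pandas 2.3.3, NumPy 2.4.6 and matplotlib 3.10.9 were used.

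The genes named were drawn from the 5 luminal markers, the 20 highest by TPM and the 10 highest by CPM. Further sources were the 4 highest and the silent members of each of 26 lists and members whose role is described. To these come the 10 genes with the largest and smallest CV above a mean of 10 and 100 CPM, and the 10 highest by TPM outside the lists. Not every gene within this rule is named. Members, lists and this rule were chosen with earlier results of these data known. Alternatives were other scalings, limits and lengths and leaving out each culture. Leaving genes of mitochondrial DNA out of the TPM total and the other length for KLK2 were added after seeing the data. Some genes are not reported here and were left out of the lists.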

Additional observations from a re-analysis of the deposited data

How the results depend on the processing

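Without 1 culture, the number of expressed genes ranged from 13496 to 13789, that of silent genes from 1266 to 1322, the KLK3 level from 2256 to 3223 CPM and the share of the 100 highest genes from 19.3% to 21.8%. The median CV ranged from 7.36% without replicate 3 to 12.6% without replicate 1. The common biological CV ranged from 12.3% without replicate 3 to 21.9% without replicate 1. The median CV was 13.0% with plain totals, 12.2% with the RLE scaling and 10.9% for genes with a mean of at least 10 CPM. Silent genes numbered 426 at a limit of 0 reads and 1852 at 10 reads. Expressed genes numbered 14329 at 0.5 CPM, 12316 at 2 CPM and 11648 at 1 TPM. Leaving out mitochondrial DNA genes lowered the share of the 100 highest genes to 17.2% and raised KLK3 to 2888 CPM. With the 0-read class, 38.4% of promoters of silent coding genes were CpG-rich. Over all lists together 194 members were expressed, and this count ranged from 183 to 207 under these limits, scalings and omissions. HOXA counted 2 expressed genes without replicate 3, 2 at 0.5 CPM, 0 at 2 CPM and 2 at 1 TPM, basal epithelium 2 at 2 CPM, endothelium 1 at 2 CPM and HOXC 3 at 2 CPM. The erythroid list counted 1 (HBB) without replicate 2. With mitochondrial DNA genes left out of the TPM total, HOXB13 was at 803 ± 22.9 TPM and FOXA1 at 482 ± 54.8 TPM. With the longest transcript, HOXB13 was at 466 TPM and 15 of the 20 highest genes were shared with the main list. The cause of these changes was not tested. Depth limits genes below about 0.1 CPM, where 3 reads cannot be told from 0. No paired analysis was possible because no groups are compared.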

Other observations

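The tubulin genes TUBB (1073, 873 and 1754 CPM in replicates 1, 2 and 3), TUBB4B (324, 327 and 689 CPM) and TUBA1B (404, 290 and 701 CPM) were highest in replicate 3, as was the chaperone HSP90AA1 (899, 1219 and 1812 CPM), whereas its paralog HSP90AB1 (2214, 2343 and 2757 CPM) varied less. TUBA1B and TUBA1C are closely related in sequence, and 44% of the exon bases of TUBA1B are shared with another annotated gene, so that its level is uncertain. TMSB4X, an actin-binding peptide, was at 28.8, 66.2 and 91.4 CPM, and its relative TMSB10 at 53.9, 61.4 and 30.5 CPM, so that the pair had opposite orders in replicates 2 and 3.

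Of the genes matched to the annotation, 295 were long non-coding RNAs, of which 59.0% were expressed and 13.2% silent, against 82.7% and 5.68% of 13827 protein-coding genes. Their median was 1.89 TPM, and that of protein-coding genes was 17.4 TPM. NEAT1, which builds nuclear paraspeckles, was at 655, 888 and 540 CPM.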
